A study of Mus musculus with 6 samples.

Results

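The 10 genes that encode the subunits of the hypoxia-inducible factors and the enzymes that sense oxygen for them were followed in retinal cells from 3 mouse samples with oxygen-induced retinopathy (OIR) and 3 control (Ctrl) samples. They were taken by gene symbol from the 31053 genes listed in the deposited matrices, and all 10 were found: the alpha subunits Hif1a, Epas1 and Hif3a, the beta subunits Arnt and Arnt2, the ubiquitin ligase subunit Vhl, the prolyl hydroxylases Egln1, Egln2 and Egln3, and the asparaginyl hydroxylase Hif1an. OIR pups were kept in 75% oxygen from day 7 to day 12 after birth, which leads to loss of retinal vessels. They were then kept in room air for 5 days, in which the vessel-poor retina lacks oxygen and new vessels form. Ctrl pups were untreated. All retinas were taken at day 17 (P17), and each sample pooled the retinas of 2 mice. The labels give no allele or transgene for either group, and the strain is not given in the sources used here. The labels call the mice adult and the material retinal endothelial cells, but 25015 of the 38569 cells kept carried rod markers and only 189 carried those of vascular endothelial cells (VEC), so these are cells of the whole retina.

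Hypoxia-inducible factors (HIFs) are pairs of an alpha and a beta subunit that switch on genes for glycolysis, vessel growth and survival in low oxygen. In oxygen, the prolyl hydroxylases mark the alpha subunits, the VHL complex binds the marked protein, and the proteasome destroys it, while the asparaginyl hydroxylase keeps what remains from binding its coactivators. This control acts on protein, which was not measured here. Egln1 and Egln3 are themselves textbook HIF target genes, so their RNA can rise when HIF is active, and HIF binds DNA at the core letters ACGTG or GCGTG.

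The bases before the start sites of the 2 members that rose in OIR (Egln1 and Egln3) and of the most counted member (Hif1a) are shown because these letters can be read in them. The sequences are RefSeq's on GRCm38.p6, written 5′ to 3′ along the gene, with ACGTG or GCGTG in capitals, on either strand (CACGT or CACGC when read from the other).
Egln1, chr8:124949315-124949504, minus strand: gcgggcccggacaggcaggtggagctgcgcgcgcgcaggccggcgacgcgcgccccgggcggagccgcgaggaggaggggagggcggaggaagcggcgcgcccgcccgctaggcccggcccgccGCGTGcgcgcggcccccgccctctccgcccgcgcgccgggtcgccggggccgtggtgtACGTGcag
Egln3, chr12:54203875-54204124, minus strand: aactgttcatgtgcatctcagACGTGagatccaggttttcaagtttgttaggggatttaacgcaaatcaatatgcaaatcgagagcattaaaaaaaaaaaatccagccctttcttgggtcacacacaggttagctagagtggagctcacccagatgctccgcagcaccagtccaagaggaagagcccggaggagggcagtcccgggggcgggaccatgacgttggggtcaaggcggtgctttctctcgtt
Hif1a, chr12:73907617-73907866, plus strand: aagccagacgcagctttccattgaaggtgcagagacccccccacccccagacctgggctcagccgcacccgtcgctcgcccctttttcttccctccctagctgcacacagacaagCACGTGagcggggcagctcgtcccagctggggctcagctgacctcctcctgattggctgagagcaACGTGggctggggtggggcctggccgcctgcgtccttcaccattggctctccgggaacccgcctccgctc
The Egln1 stretch ends 61 bases before the RefSeq start, because GENCODE starts the transcript further upstream and its last 10 bases already lie in the GENCODE exon. Egln1 held ACGTG 68 bases before the RefSeq start, within these last 10 bases and so inside the GENCODE exon. It held GCGTG 126 bases before the RefSeq start. Egln3 held a single ACGTG 229 bases before its start. Hif1a held ACGTG 70 bases before its start and the palindrome CACGTG, which reads ACGTG on both strands, 135 bases before it. A promoter was matched for 9 of the 10 members, all but Epas1. Of these 9, 6 held ACGTG or GCGTG on either strand in the 250 bases before a start and 4 held ACGTG. Over all 32851 promoters of the table, 38.6% held either and 16.6% held ACGTG. A match is a description of letters and no measurement of binding.

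Libraries held 15788524 to 42606878 unique molecular identifiers (UMIs), the counted RNA molecules. Both replicate 1 samples were deeper, with a median of 3958 and 4850 UMIs per cell against 1449.5 to 2354 in the other 4. Ctrl replicates 2 and 3 expressed the female transcript Xist at 1798 and 1998 counts per 1000000 UMIs (CPM), and the other 4 samples were male by Y-linked counts, so sex was partly tied to the group. Haemoglobin transcripts reached 670 to 1682 CPM in Ctrl samples and 7.17 to 20.8 CPM in OIR samples. Clusters were named from marker genes and are called "-like", and 11 such cell types were named. UMIs were summed per sample and cell type, expressed as CPM, and compared between the 3 OIR and 3 Ctrl sums in 9 cell types with edgeR's quasi-likelihood test. A gene counted as called if its p, adjusted by Benjamini-Hochberg over all genes tested in the cell type, was under 0.05 and its log2 fold change was 0.25 or more in either direction. Errors of fold changes are standard errors (SE). Whether each sum came from separately reared litters is not stated, so p-values measure the spread between these samples.

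Egln1 (PHD2), the main oxygen sensor that marks HIF alpha subunits for destruction, rose in both classes of bipolar cells of OIR retinas. Egln3 (PHD3), a second prolyl hydroxylase, rose in Mueller-like glia, the support cells that span the retina. No other member was called in any cell type by this test, which left out genes of low counts. Of the 47 tests of a member in a cell type, these 3 passed. Egln3 entered the test in Mueller-like cells only through its counts in the OIR samples. The calls were 1 of 7 members tested in rod bipolar-like cells, where 2.44% of all genes tested were called, 1 of 8 in cone bipolar-like cells (0.838% of all genes) and 1 of 10 in Mueller-like cells (2.52% of all genes). None of the 7 members tested in rod-like cells was called (2.73% of all genes), nor any of the 7 in cone-like cells (1.33%), 2 in amacrine-like cells (0.0517%), 3 in microglia-like cells (0.324%), 2 in cells like retinal pigment epithelium (RPE; 0.0567%) or the 1 member tested in VEC-like cells (0.322%).

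**Figure D1:**
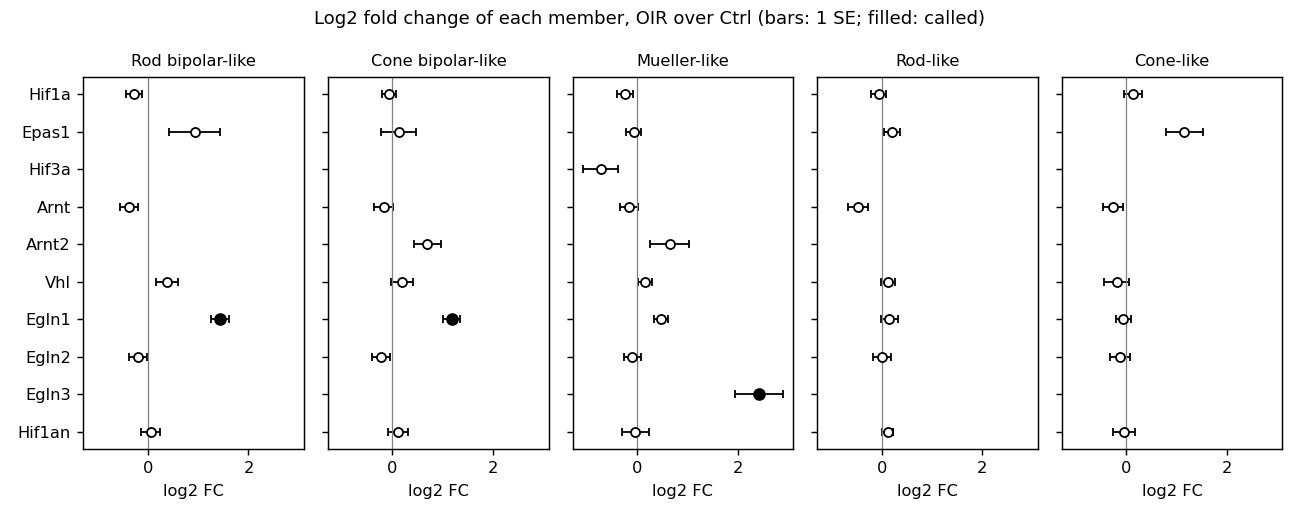
Log2 fold change (FC) of each member between OIR and Ctrl on the x axis in the 5 most numerous cell types, with bars of 1 SE. Filled points were called, which are Egln1 at 1.44 in rod bipolar-like and 1.18 in cone bipolar-like cells and Egln3 at 2.43 in Mueller-like cells. A member without a point was below the filter on low counts.

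Egln1 (ENSMUSG00000031987) lies on chromosome 8 from 124908587 to 124949324 on the minus strand of GRCm38, and overlaps no other annotated gene. In rod bipolar-like cells, the interneurons that carry the rod signal, it stood at 243, 238 and 174 CPM in OIR replicates 1, 2 and 3. In Ctrl replicates 1, 2 and 3 it stood at 88.8, 62.2 and 81.0 CPM. The lowest OIR sample was thus well above the highest Ctrl sample, and OIR and Ctrl samples did not overlap for 19.2% of all genes tested there. Its log2 fold change was 1.44 ± 0.18 (SE), a 2.71-fold rise, with an adjusted p of 5.33e-04 by edgeR. It rested on 2477 UMIs over the 6 sums.

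In cone bipolar-like cells, which carry the cone signal, Egln1 stood at 266, 269 and 180 CPM in OIR replicates 1, 2 and 3. The Ctrl replicates held 94.6, 102 and 112 CPM, so that the groups did not overlap (17.7% of all genes tested there) and OIR replicate 3 was the lowest of its group, as in rod bipolar-like cells. The change on the log2 scale was 1.18 ± 0.17, a 2.26-fold rise, with an adjusted p of 0.00563 by edgeR. Without OIR replicate 2 the adjusted p was 0.0502, just past the threshold. The cone bipolar-like class joined 6 clusters, named here by their leading genes, and Egln1 was higher in OIR in each. The log2 fold change was 1.55 ± 0.23 in the Cck cluster, 1.48 ± 0.25 in the Grik1 cluster, 1.38 ± 0.22 in the Gabrr3 cluster, 1.32 ± 0.27 in the Igfn1 cluster and 1.13 ± 0.25 in the Slit2 cluster, all of which were called. The Kcng4 cluster gave 0.94 ± 0.21 with an adjusted p of 0.0942 and was not called. Cells of these clusters come from the same samples, so the clusters are not replicates of one another.

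In Mueller-like cells Egln1 stood at 152, 127 and 135 CPM in OIR and at 94.0, 93.7 and 99.0 CPM in Ctrl. The groups did not overlap, which held for 20.5% of all genes tested there. The log2 fold change of 0.47 ± 0.14 had an adjusted p of 0.121 and was not called. On simulated counts for these sums the test recovered 0% of 200 random genes changed 1.5-fold. These genes were drawn at any count level above the filter, so the power for Egln1 itself was not measured. In the Mueller cluster of high UMI counts the OIR samples stood at 122 to 152 CPM and the Ctrl samples at 91.1 to 97.4 CPM, and in that of low counts at 140 to 153 CPM and 74.1 to 120 CPM.

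In rod-like photoreceptors Egln1 stood at 95.5, 80.3 and 69.6 CPM in OIR and at 80.3, 59.5 and 59.2 CPM in Ctrl, with overlapping groups and a log2 fold change of 0.15 ± 0.17 (adjusted p = 0.699). In cone-like photoreceptors it stood at 116, 104 and 94.7 CPM in OIR and at 102, 101 and 120 CPM in Ctrl, with a log2 fold change of -0.05 ± 0.15 (adjusted p = 0.942). Amacrine-like cells gave 0.15 ± 0.30 (adjusted p = 0.923) from 215 UMIs. Microglia-like cells, the immune cells of the retina, gave 1.02 ± 0.37 (adjusted p = 0.333) from 151 UMIs, with OIR samples at 98.7, 128 and 44.2 CPM and Ctrl samples at 44.2, 35.0 and 52.7 CPM. OIR replicate 3 lay within the Ctrl range there.

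**Figure D2:**
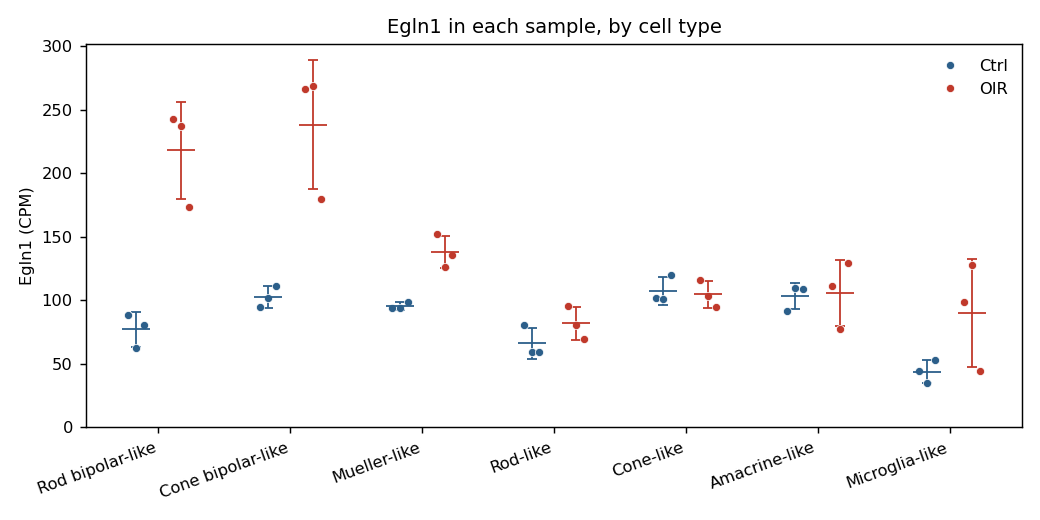
Egln1 level in CPM (y axis) in each OIR (red) and Ctrl (blue) sample for 7 marker-named cell types, where points are samples and bars the mean ± SD of 3 samples. The OIR samples sit between 174 and 269 CPM in both bipolar classes, above all Ctrl samples, while OIR and Ctrl points intermix in rod-like and cone-like cells.

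Whether the rise of Egln1 differed between cell types was tested in 1 edgeR fit over the 5 most numerous types, with the sample as a block. The log2 fold change of Mueller-like minus that of rod bipolar-like cells was -0.92 ± 0.16 (adjusted p = 0.00173), in a contrast that called 1.77% of the 13404 genes. Mueller minus cone bipolar-like cells gave -0.71 ± 0.16 (adjusted p = 0.0159, 1.17% of genes called), and this call was lost without OIR replicate 1 (adjusted p = 0.0990), OIR replicate 2 (0.196) or Ctrl replicate 1 (0.0811). Mueller minus cone-like cells gave 0.53 ± 0.16 (adjusted p = 0.138, 1.01% of genes called) and Mueller minus rod-like cells 0.32 ± 0.15 (adjusted p = 0.279, 3.42% of genes called), neither of which was called.

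Another 5 contrasts between neuron types were added after these values had been seen. The rise in rod bipolar-like cells was larger than the change in rod-like cells by 1.24 ± 0.15 (adjusted p = 1.63e-05, 2.77% of genes called) and larger than that in cone-like cells by 1.45 ± 0.17 (adjusted p = 8.80e-06, 0.783% of genes called). The rise in cone bipolar-like cells was larger than the change in rod-like cells by 1.03 ± 0.15 (adjusted p = 1.27e-04, 2.5% of genes called) and in cone-like cells by 1.24 ± 0.17 (adjusted p = 2.51e-04, 0.552% of genes called). Both bipolar classes differed by 0.21 ± 0.16 (adjusted p = 0.940, 0.239% of genes called), which was not called. No other member was called in any of the 9 contrasts.

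**Figure D3:**
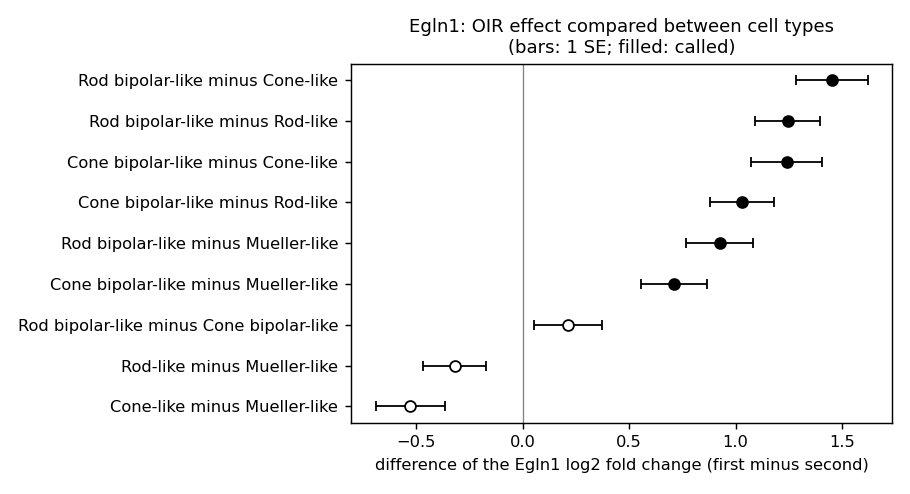
Difference between 2 cell types in the log2 fold change of Egln1 (x axis, first minus second) with bars of 1 SE. Filled points were called. All 6 differences of a bipolar class minus a rod, cone or Mueller class, with the Mueller contrasts drawn in that order too, lie between 0.71 and 1.45 and were called.

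Markers of other cell types were summed in the same cells. In rod bipolar-like sums, the 8 rod markers stood at 1660 to 2874 CPM in OIR and 2046 to 3871 CPM in Ctrl, with none at 0, and overlapped. The 10 Mueller markers overlapped too, at 225 to 361 CPM in OIR and 126 to 289 CPM in Ctrl. The 9 rod bipolar markers themselves were higher in OIR, at 25289 to 27801 CPM against 21025 to 23980 CPM. In cone bipolar-like sums, the 10 cone bipolar markers were lower in OIR, at 1746 to 1964 CPM against 2136 to 2433 CPM, and the 9 VEC markers were also lower, at 33.7 to 59.1 CPM against 64.4 to 90.1 CPM. The 5 horizontal cell markers (2 at 0) were higher in OIR in rod bipolar-like sums, at 7.32 to 9.80 CPM against 1.56 to 7.26 CPM. In cone bipolar-like sums the 8 ganglion cell markers (1 at 0) were lower, at 7.93 to 9.71 CPM against 16.1 to 24.0 CPM. Every other marker list overlapped in these sums. The part of these markers in the Egln1 values was not tested.

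Egln3 (ENSMUSG00000035105; chromosome 12, 54178981 to 54203860, minus strand) was counted with 175 UMIs in Mueller-like cells. OIR replicates 1, 2 and 3 held 115, 24 and 19 of them and Ctrl replicates 9, 6 and 2. This corresponds to 14.8, 7.5 and 6.17 CPM in OIR and 1.60, 2.52 and 1.22 CPM in Ctrl. All OIR samples were above all Ctrl samples, as for 14% of all genes tested there, with OIR replicate 1 the highest. On the log2 scale the change was 2.43 ± 0.48 (adjusted p = 0.0278 by edgeR), a 5.38-fold rise. Egln3 passed the filter on low counts through the OIR samples alone, since all Ctrl samples lay below its cut-off. Its entry into the test thus depended on the group in which it was high. The call was lost when OIR replicate 1 (adjusted p = 0.107), Ctrl replicate 1 (0.0592), Ctrl replicate 2 (0.0669) or Ctrl replicate 3 (0.0894) was left out, and with replicates 2 and 3 alone (0.0943), while the fold change stayed positive.

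Mueller-like cells fell into 2 clusters, of 2205 cells with a median of 9200 UMIs and of 1279 cells with a median of 1843 UMIs, and the second held more cells than the first in OIR replicates 2 and 3 only. In the cluster of high UMI counts, Egln3 stood at 15.4, 5.78 and 6.61 CPM in OIR and at 1.58, 2.37 and 0.681 CPM in Ctrl, with no overlap. In the cluster of low counts, it rested on 24 UMIs, at 10.3, 15.0 and 4.56 CPM in OIR and 1.80, 3.71 and 5.60 CPM in Ctrl, where OIR replicate 3 fell within the Ctrl range. The 10 Mueller markers in the joined class were lower in OIR (24117 to 30719 CPM) than in Ctrl (30747 to 41785 CPM), and the 9 VEC markers higher (1064 to 1311 CPM against 917 to 1041 CPM). The 9 VSMC (vascular smooth muscle) markers were lower in OIR (163 to 187 CPM against 193 to 249 CPM). So were the 8 ganglion cell markers (23.4 to 35.0 CPM against 39.9 to 47.4 CPM), and the other lists overlapped. Their part in the Egln3 and Egln1 values was not tested.

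Outside Mueller-like cells Egln3 was below the filter on low counts. In rod bipolar-like cells its 32 UMIs gave 5.65, 1.15 and 1.36 CPM in OIR and 0.182 CPM in Ctrl replicate 1, with 0 UMIs in Ctrl replicates 2 and 3. With no filter it was called there (log2 fold change 4.24 ± 1.03, adjusted p = 0.00260 by edgeR), a size that rests on a single Ctrl UMI. These OIR levels were 15.4 to 38.0% of those in the Mueller-like sums of the same samples, while 9 Mueller markers (all but Apoe) stood at 1.04 to 1.32% of theirs. In Ctrl replicate 1 the shares were 11.4% for Egln3 and 0.764% for these markers. The part of Mueller RNA in the Egln3 values of rod bipolar-like sums was not tested. In microglia-like cells the 52 UMIs of Egln3 gave 29.9, 117 and 12.1 CPM in OIR and 3.40, 0 and 15.8 CPM in Ctrl, where the groups overlapped, and with no filter it was called (2.95 ± 0.63, adjusted p = 7.47e-04). No other member kept out by the filter was called with no filter. The astrocyte-like sums held 10 UMIs. Rod-like cells held 3 UMIs in all and cone-like and RPE-like cells held 0.

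**Figure D4:**
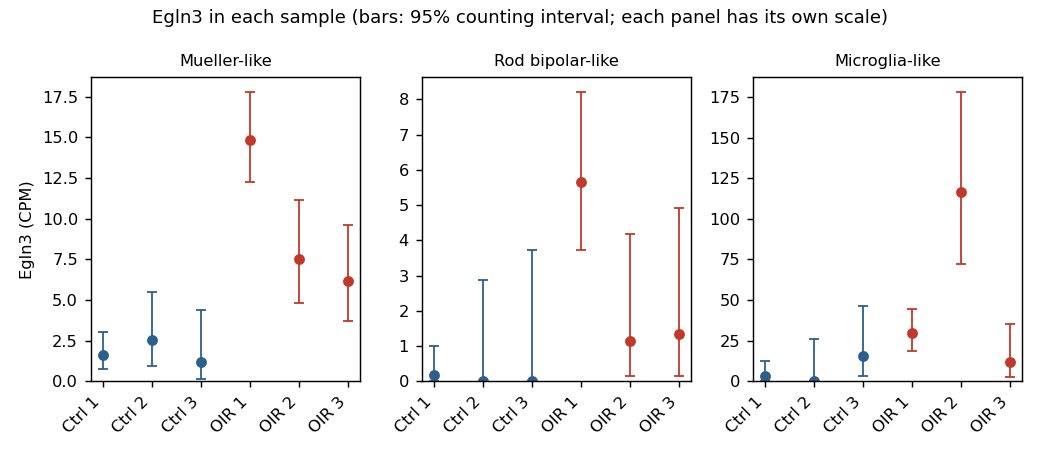
Egln3 level in CPM (y axis) in each Ctrl (blue) and OIR (red) sample for Mueller-like, rod bipolar-like and microglia-like cells, each on its own scale, with exact 95% Poisson intervals that cover counting error only. In Mueller-like cells the 3 OIR samples lie at 6.17 to 14.8 CPM and the 3 Ctrl samples at 1.22 to 2.52 CPM.

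Egln2 (PHD1), the remaining prolyl hydroxylase, was found in every named cell type and was not called in the 6 types tested, where its log2 fold changes lay between -0.23 and 0.17. Hif1an (FIH), the asparaginyl hydroxylase, was not called in the 5 types tested, with log2 fold changes between -0.04 and 0.12. In rod-like cells, where its level was highest, Hif1an stood at 44.3 to 52.5 CPM in OIR and 40.2 to 41.5 CPM in Ctrl. These groups did not overlap, as for 28.1% of all genes tested in rod-like cells, 23.4% with OIR above. The log2 fold change was 0.12 ± 0.10 (adjusted p = 0.597).

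Vhl, the part of the ubiquitin ligase that binds hydroxylated alpha subunits, was higher in all OIR than in all Ctrl samples in 3 cell types, without a call in any. In Mueller-like cells it stood at 35.9, 36.0 and 34.7 CPM in OIR and 31.8, 31.5 and 27.3 CPM in Ctrl (log2 fold change 0.16 ± 0.14, adjusted p = 0.680). In rod bipolar-like cells it stood at 21.8, 19 and 21 CPM in OIR and 15.1, 17.9 and 14.2 CPM in Ctrl (0.38 ± 0.22, adjusted p = 0.459). In rod-like cells it stood at 15.5, 16.3 and 14.6 CPM in OIR and 13.8, 13.1 and 11.3 CPM in Ctrl (0.13 ± 0.15, adjusted p = 0.706). Genes with OIR above Ctrl in all samples made up 14% of those tested in Mueller-like, 11.5% in rod bipolar-like and 23.4% in rod-like cells.

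Hif1a, the broadly expressed alpha subunit, was not called in any of the 8 types tested, and its log2 fold changes lay between -0.28 and 0.14. In rod-like cells it stood at 588, 728 and 808 CPM in OIR and 563, 710 and 702 CPM in Ctrl, with a log2 fold change of -0.06 ± 0.15 (adjusted p = 0.878). The fold change was computed after edgeR's scaling between samples (TMM) and the CPM were not, so their signs can differ. In cone bipolar-like cells Hif1a stood at 557, 660 and 637 CPM in OIR and 650, 627 and 586 CPM in Ctrl (-0.06 ± 0.14, adjusted p = 0.903). In both bipolar classes the Egln1 rise thus stood beside a Hif1a level whose groups overlapped, with -0.28 ± 0.16 (adjusted p = 0.435) in rod bipolar-like cells. Mueller-like cells gave -0.23 ± 0.16 (adjusted p = 0.571).

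Epas1 (HIF-2 alpha), the alpha subunit known from vessels, was not called in the 7 types tested. In cone-like cells it stood at 7.99, 21.2 and 16 CPM in OIR and 6.33, 7.11 and 3.28 CPM in Ctrl from 134 UMIs, with no overlap between groups, as for 17.1% of all genes tested there. The log2 fold change was 1.16 ± 0.36 with an adjusted p of 0.148, and it was called with no filter on low counts (1.14, adjusted p = 0.0468), without OIR replicate 1 (1.5, 0.0332) and with replicates 2 and 3 alone (1.55, 0.0341). In rod bipolar-like cells, with 104 UMIs, Epas1 gave 0.93 ± 0.51 (adjusted p = 0.426), and 3.14 without Ctrl replicate 1 (adjusted p = 0.0346). That fit left Ctrl replicates 2 and 3, which both stood at 0 CPM of Epas1 in cells thinned to an equal number of UMIs. The lowest full sum was also at 0 CPM, so the size of 3.14 rests on few Ctrl UMIs of Epas1. In VEC-like cells Epas1 could not be compared with any precision, since OIR replicates 2 and 3 held 2 such cells each. The log2 fold change there was 0.10 ± 0.80 (adjusted p = 0.996). Hif3a, an alpha subunit whose short forms can restrain the others, passed the filter in Mueller-like cells only, at 18.2, 39.1 and 10.1 CPM in OIR and 38.4, 31.5 and 34.0 CPM in Ctrl. OIR replicate 2 lay above all Ctrl samples, and the log2 fold change of -0.73 ± 0.36 was not called (adjusted p = 0.373), but -1.27 without OIR replicate 2 was (0.0476).

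Of the beta subunits, Arnt, the common partner of the alpha subunits, had negative log2 fold changes in all 5 types tested, from -0.46 to -0.16, and none was called. The largest was in rod-like cells (-0.46 ± 0.20, adjusted p = 0.258), where OIR samples stood at 22.4, 28.7 and 32.8 CPM and Ctrl samples at 24.3, 39.7 and 38.5 CPM. It was called with the replicate number as a block (-0.45, adjusted p = 0.0322), without Ctrl replicate 1 (-0.65, 0.0293) and with replicates 2 and 3 alone (-0.54, 0.00568), and was 0.05 with a term for sex (0.937). In rod bipolar-like cells the OIR samples, at 29.1 to 33.9 CPM, were all below the Ctrl samples, at 34.7 to 43.6 CPM (-0.37 ± 0.18, adjusted p = 0.357), and 7.68% of all genes tested there had OIR below Ctrl in all samples. Arnt2, the other beta subunit, stood in cone bipolar-like cells at 11.5, 17.9 and 16.4 CPM in OIR and 8.87, 8.58 and 8.04 CPM in Ctrl. The groups did not overlap, as for 17.7% of all genes tested there, and 0.69 ± 0.27 was not called (adjusted p = 0.312).

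Levels across cell types are given as means over the 6 samples and without a test, since the cell types were defined from the same cells. Epas1 and Egln3 were also among the 2000 genes used for clustering. Hif1a was highest in rod-like cells, at 683 ± 91.8 CPM (SD, n = 6), and cone bipolar-like cells, at 619 ± 39.9 CPM, which did not differ beyond their spread. It followed in amacrine-like (403 ± 120 CPM) and rod bipolar-like cells (376 ± 65.8 CPM), and was lowest in microglia-like cells (96.4 ± 22.5 CPM) and VSMC-like cells (vascular smooth muscle; 112 ± 54.9 CPM), with Mueller-like cells at 121 ± 20.4 CPM. The order was another one for Epas1, in which VEC-like (773 ± 736 CPM), VSMC-like (511 ± 225 CPM), astrocyte-like (295 ± 153 CPM) and RPE-like cells (175 ± 75.8 CPM) stood above Mueller-like (92.2 ± 11.1 CPM) and rod-like cells (74.7 ± 15.4 CPM). The 4 highest overlapped in their ranges. Bipolar-like cells, rich in Hif1a, held 6.24 ± 1.64 CPM of Epas1 in the cone class and 5.35 ± 3.75 CPM in the rod class.

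Hif3a was found mainly in Mueller-like cells, at 28.5 ± 11.8 CPM, with 644 of its 727 UMIs. Rod-like cells held 15 UMIs of it among 25015 cells. Arnt2 stood at 18.6 ± 11.2 CPM in astrocyte-like, 13.5 ± 4.47 CPM in amacrine-like and 11.9 ± 4.26 CPM in cone bipolar-like cells, which did not differ beyond their spread, and at 3.41 ± 1.16 CPM in Mueller-like cells. It was near 0 in both photoreceptor classes, with 10 UMIs in rod-like and 2 in cone-like cells. Arnt was flatter, between 20.8 ± 2.16 CPM in Mueller-like and 35.3 ± 5.73 CPM in rod bipolar-like cells among the 5 most numerous types. Vhl was highest in microglia-like (43.3 ± 11 CPM) and Mueller-like cells (32.9 ± 3.34 CPM), and Hif1an in rod-like cells (45.2 ± 5.63 CPM).

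Egln1 in the Ctrl samples held 35.0 to 52.7 CPM in microglia-like, 59.2 to 80.3 CPM in rod-like, 62.2 to 88.8 CPM in rod bipolar-like, 93.7 to 99.0 CPM in Mueller-like, 94.6 to 112 CPM in cone bipolar-like and 101 to 120 CPM in cone-like cells. The ranges of rod-like and rod bipolar-like cells overlapped each other and lay below those of Mueller-like, cone bipolar-like and cone-like cells. Rod markers were also counted in the sums of other cell types. The 8 rod markers stood at 2706 to 5013 CPM in the Mueller-like sums and at 33429 to 44312 CPM in rod-like cells, where the range of Hif1a was 94.6 to 146 CPM and 563 to 808 CPM in the same order. The part of RNA from rods in the lower levels was not tested.

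**Figure D5:**
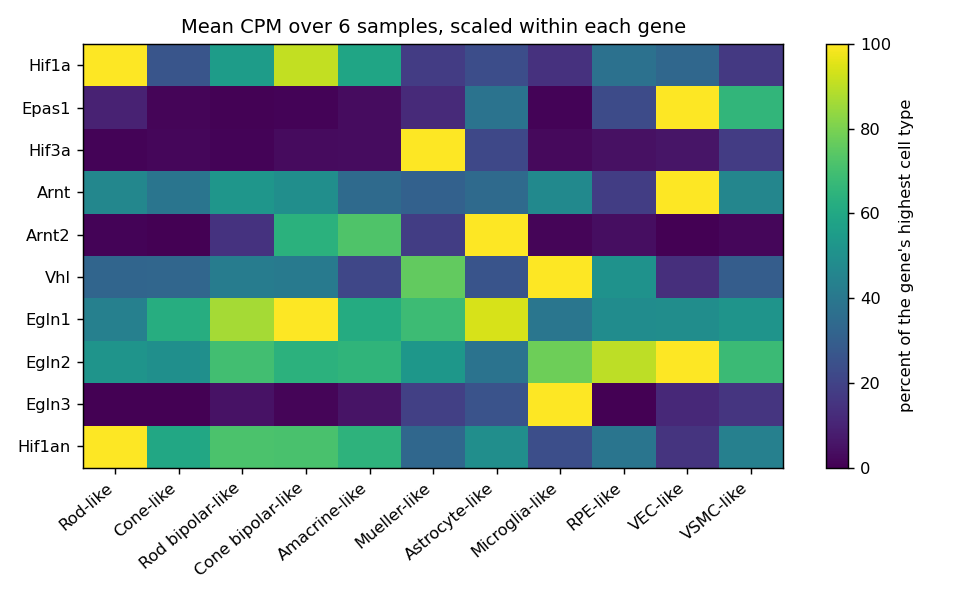
Mean CPM over 6 samples of each member (rows) in 11 marker-named cell types (columns), as a percent of the gene's own highest cell type, so that colours are comparable within a row only. Hif1a has its highest means in rod-like and cone bipolar-like cells, Epas1 in VEC-like cells, Hif3a in Mueller-like cells and Egln3 in microglia-like cells. The means of Epas1 in VEC-like cells (773 ± 736 CPM, SD) and Egln3 in microglia-like cells (29.6 ± 43.9 CPM, range 0 to 117) did not exceed the next type beyond their spread.

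The genes whose levels most resembled those of a member were found over the sums of 9 cell types in 6 samples (54 sums, sharing their samples), as Pearson correlations of log2(CPM + 1) among 14437 genes, given as descriptions. For Egln1 these were Dynlrb1 (r = 0.915), Nsfl1c (0.906) and Pdap1 (0.904). For Hif1a they were Pak7 (0.853), Nlk (0.810) and BC034090 (0.796), and for Epas1 the glucose transporter Slc2a1 (0.881), Cgnl1 (0.823) and Mansc1 (0.789). Hif3a was most like Mchr1 (0.907), Arnt2 most like Ncan (0.928), Arnt most like Thoc1 (0.895) and Hif1an most like Zfp398 (0.866). For the scarce Egln3, the highest was 0.799 with Olfr920. All sums weighed equally, among them the VEC-like sums of OIR replicates 2 and 3, with 2 cells each. Neither of them held a UMI of Egln1, so they can account for much of its correlations, which was not tested.

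Other genes of the pathway were counted from 3 lists. Of 20 genes of HIF degradation and modification, such as the VHL partners Elob, Eloc and Cul2, none was called in any of the 9 cell types, and their median log2 fold change was 0.00 in rod bipolar-like, -0.01 in cone bipolar-like and 0.08 in Mueller-like cells, with all 20 tested in each. Of 20 coactivators and related bHLH-PAS factors, such as Ep300 and Crebbp, none was called either, with 10 tested in rod bipolar-like and 13 in Mueller-like cells.

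Of 41 textbook HIF targets, 40 were matched. The list was chosen with earlier results of these data known, so its counts and medians are descriptions and no test. Some called targets passed the filter on low counts only through the OIR samples. These include Ndufa4l2 in cone-like and cone bipolar-like cells, Stc2 in cone bipolar-like cells and Adm in Mueller-like cells. In rod bipolar-like cells 10 of 31 tested rose (1.27% of all genes tested) and none fell, and the median log2 fold change was 0.46 against -0.01 over all genes tested. In cone bipolar-like cells 5 of 34 rose (0.487% of all genes) and none fell (median 0.34 against -0.01), and in Mueller-like cells 10 of 37 rose (1.51% of all genes) and none fell (median 0.30 against -0.01). In microglia-like cells 3 of 19 rose (0.295% of all genes, median 0.68 against -0.01). The 9 microglia markers were lower in OIR there (39423 to 44377 against 44555 to 50990 CPM) and the 10 Mueller markers higher (41936 to 51593 against 16940 to 20718 CPM). Most of the latter was Apoe, which microglia are known to express (41436 to 50978 against 16055 to 19935 CPM), and the other 9 overlapped, at 500 to 939 CPM in OIR and 783 to 923 CPM in Ctrl. Their part in the microglia values was not tested. In rod-like cells 1 of 31 rose (1.64% of all genes) and 1 fell (1.09%), and the median was -0.24 against 0.00, while in cone-like cells 1 of 28 rose (0.877% of all genes), with a median of -0.18 against 0.00. No target was called in amacrine-like, RPE-like or VEC-like cells. With the replicate number as a block, 16 targets rose in rod bipolar-like cells, where 331 of all 9326 genes tested rose. In cone bipolar-like cells 14 targets rose and 2 fell (257 and 271 of 10260 genes). In rod-like cells 2 rose and 6 fell (690 and 654 of 11512 genes). Under the same block, 1 gene of the degradation list rose in rod bipolar-like and 1 fell in rod-like cells. Without Ctrl replicate 2, 2 targets rose in Mueller-like cells (53 of 11812 genes) and 5 in rod bipolar-like cells (61 of 9813 genes). Without OIR replicate 1, 14 targets fell in rod-like cells (228 of 11753 genes).

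Among the called targets, Bnip3, a mitophagy receptor, rose in both bipolar classes, by 1.30 ± 0.17 (rod, adjusted p = 8.04e-04) and 1.09 ± 0.15 (cone, adjusted p = 0.00517). Ndrg1, a stress-response gene, rose by 2.09 ± 0.15 in rod bipolar-like cells, from 23.3 to 27.3 CPM in Ctrl to 101 to 125 CPM in OIR. Hk2, which starts glycolysis, rose by 2.07 ± 0.21 in rod bipolar-like cells and fell by 2.84 on the log2 scale in rod-like cells, from 119 to 194 CPM in Ctrl to 12.9 to 39.3 CPM in OIR. Ndufa4l2, a gene for a mitochondrial protein, rose in Mueller-like cells by 3.63 ± 0.21, from 79.0 to 104 CPM in Ctrl to 975.4 to 1386 CPM in OIR. It was the called target that was higher in OIR in rod-like cells (3.43 ± 0.29, 12.5 to 14.9 CPM in OIR) and cone-like cells (4.39 ± 0.64, 9.03 to 40.7 CPM), and 1 of the 5 in cone bipolar-like cells (2.84 ± 0.43, 14.3 to 23 CPM). These OIR levels were 1.03 to 1.29% of the Mueller-like level in rod-like, 0.652 to 4.17% in cone-like and 1.22 to 1.90% in cone bipolar-like sums. The 9 Mueller markers other than Apoe stood at 0.791 to 1.23%, 2.02 to 2.28% and 1.08 to 1.49% of their own Mueller-like level in the same sums. In cone-like sums of OIR replicates 1, 2 and 3, Ndufa4l2 stood at 0.652, 4.17 and 1.12%, against 2.28, 2.19 and 2.02% for these markers. Whether these neurons express Ndufa4l2 was not tested. The part of Mueller RNA in these values was not tested. In cone-like sums the 10 Mueller markers were also higher in OIR, at 554 to 724 against 475 to 553 CPM. In Mueller-like cells Adm, a vessel-active peptide, rose by 5.57 ± 0.94 and Apln, another, by 2.19 ± 0.36. Leaving out OIR replicate 2 or 3 or Ctrl replicate 2 or 3 ended the call of Hk2 in rod-like cells (adjusted p = 0.0521 to 0.0817), and leaving out Ctrl replicate 2 or 3 ended those of Adm (0.0576 to 0.0635) and Apln (0.0523 to 0.0590). The list was not tested against other lists.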

How the data were processed

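Single-cell RNA of P17 mouse retinas was measured in 3 OIR and 3 Ctrl samples with a droplet 3′ kit that counts UMIs. The authors deposited whole-number counts of UMIs per gene and barcode, filtered for empty droplets and not normalized. The methods name Cell Ranger, the matrix headers give software version 3.1.0, and the submitters' processing notes name build mm10. Depth per sample is given with the results.

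Barcodes with 500 to 5000 genes and at most 20% mitochondrial UMIs were kept, the limits given in the study's methods. Both groups were integrated with Seurat 5.3.0 (R 4.3.3) by canonical correlation analysis (2000 genes, 15 components, 20 neighbours, Louvain resolution 0.5), and 19 of 23 clusters were named from marker genes. The other 1627 cells entered no test. Doublets were not removed, and removal of the highest Scrublet scores (2491 cells) was an alternative, since the automatic threshold marked 489 cells, all of them in the replicate 1 samples. Libraries shared 254 barcodes, and no shared pair held the same profile.

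Counts were summed per sample and cell type and tested with edgeR 4.0.16 (TMM, filterByExpr, quasi-likelihood, no covariate) where each sample held at least 10 cells, and in VEC-like cells in any case. SEs were derived from the F statistic. CPM, and the overlap of groups judged from them, are relative to all UMIs of the sum. Fold changes were computed after TMM scaling, so they can differ from the CPM in size or sign. Alternatives used DESeq2 1.42.0, no filter, each sample left out, the replicate number as a block, sex as a term, replicates 2 and 3 alone, a mitochondrial limit of 10%, Leiden clustering without integration (scanpy 1.11.5) and cells thinned to 1000 UMIs. Deviations from the group means correlated at 0.670, 0.298 and 0.506 between OIR and Ctrl samples of replicate number 1, 2 and 3, over sums of all cells. Within the tested cell types they ran from -0.155 (VEC-like, number 1) to 0.489 (rod-like, number 1), with 0.166, 0.0586 and 0.0666 in cone-like cells. Correlations between samples of unlike number were not computed, so whether the numbers pair the samples was not settled. When known changes were put into 200 random genes of simulated Mueller-like sums (11533 genes), 95% of 4-fold changes were called, 60.5% of 2-fold and 0% of 1.5-fold changes. Of the genes called, 6.86%, 9.02% and 100% were false in the same order.

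Members called in a cell type or not overlapping between groups in 3 or more are given sample by sample, others by ranges, and at most 5 called genes per list and cell type, lowest p first, could be named. The members, lists and contrasts were chosen with earlier results of these data known. Gene positions are GENCODE vM21 on GRCm38. Aldoa, whose symbol is given to more than 1 row, was left out of the target list.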

Additional observations from a re-analysis of the deposited data

Results flagged for a closer look

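The change of Egln1 between OIR and Ctrl differed between cell types in 6 contrasts by the interaction test of edgeR. The log2 fold change was larger in rod bipolar-like than in rod-like cells by 1.24 ± 0.15 (SE, adjusted p = 1.63e-05) and than in cone-like cells by 1.45 ± 0.17 (adjusted p = 8.80e-06). In cone bipolar-like cells it was larger than in rod-like cells by 1.03 ± 0.15 (adjusted p = 1.27e-04) and than in cone-like cells by 1.24 ± 0.17 (adjusted p = 2.51e-04). Mueller-like minus rod bipolar-like cells gave -0.92 ± 0.16 (adjusted p = 0.00173) and Mueller-like minus cone bipolar-like cells -0.71 ± 0.16 (adjusted p = 0.0159). The last of these was not called without OIR replicate 1, OIR replicate 2 or Ctrl replicate 1. In both bipolar classes all 3 OIR samples were above all 3 Ctrl samples. Groups did not overlap for 19.2% of all genes tested in rod bipolar-like and 17.7% in cone bipolar-like cells. The contrasts between neuron types were added after the first results had been seen, and the cause of these differences was not tested. Groups of 3 samples were too small for the test of single outlying samples.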

How the results depend on the processing

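Egln1 in rod bipolar-like cells stayed called under all 14 alternatives (log2 fold change 1.23 to 1.61, adjusted p 2.84e-17 to 0.00850), and so did its difference from rod-like and cone-like cells and that of cone bipolar-like from both, under 9 alternatives each. In cone bipolar-like cells it was 1.04 to 1.35 with a sample left out, called except without OIR replicate 2, and 0.94 in the Kcng4 cluster alone, where it was not called. Egln3 in Mueller-like cells was 1.81 to 2.68 with a sample left out, and was not called without OIR replicate 1 or without any of the Ctrl replicates. It was 1.66 with replicates 2 and 3 alone, where it was not called either. Mueller minus cone bipolar-like cells was -0.85 to -0.57 for Egln1 with a sample left out. This difference was not called without OIR replicate 1, OIR replicate 2 or Ctrl replicate 1. Replicate 1 alone, 1 against 1 and without a test, gave log2 ratios of CPM of 1.45, 1.49 and 0.69 for Egln1 in rod bipolar-like, cone bipolar-like and Mueller-like cells and 3.21 for Egln3. Over the 47 member tests, 57 of 664 alternative values had the other sign, none of them for the 3 called pairs of a member and a cell type.

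Values that changed sign were, for Egln1, -0.12 in rod-like cells with a term for sex (-0.014 to 0.30 with a sample left out), -0.18 to 0.014 in cone-like cells with a sample left out, and -0.0055 in amacrine-like cells with replicates 2 and 3 alone (-0.018 to 0.28 with a sample left out). With a term for sex, Arnt was 0.052 and Hif1a 0.17 in rod-like cells, where Hif1a was -0.16 to 0.025 with a sample left out, and Hif1a was 0.035 in cone bipolar-like cells with replicates 2 and 3 alone. Epas1 in VEC-like cells was -0.63 with no filter, -0.53 with the replicate block, -0.37 with a term for sex and -1.27 to 0.46 with a sample left out. None of these was called in the test as reported. The mean of Epas1 in Mueller-like cells was 80.6 CPM in cells thinned to 1000 UMIs.

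The number of genes called moved much more, and the cause was not tested. In rod-like, cone-like, rod bipolar-like, cone bipolar-like and Mueller-like cells it was 314, 124, 228, 86 and 291 as reported. With the replicate block it was 1344, 360, 642, 528 and 437 (RPE-like 12 against 1). With no filter, where more genes were tested, it was 593, 313, 604, 420 and 687 (amacrine-like 50, microglia-like 134, RPE-like 17, VEC-like 54, against 2, 11, 1 and 3). Replicates 2 and 3 alone gave 2629 in rod-like, 344 in cone-like, 719 in rod bipolar-like, 303 in cone bipolar-like, 3 in RPE-like and 0 in VEC-like cells. A term for sex gave 34 in rod-like, 347 in cone bipolar-like, 493 in Mueller-like, 0 in amacrine-like, 22 in microglia-like, 2 in RPE-like and 1 in VEC-like cells. DESeq2 gave 651 in rod-like, 26 in microglia-like and 6 in VEC-like cells, a mitochondrial limit of 10% gave 0 in amacrine-like cells, clustering without integration 23 in microglia-like cells, and the Mueller cluster of low UMI counts alone 72. With a sample left out the counts ran from 41 to 1002 (rod-like), 56 to 212 (cone-like), 81 to 353 (rod bipolar-like), 22 to 207 (cone bipolar-like), 0 to 6 (amacrine-like), 76 to 476 (Mueller-like), 3 to 43 (microglia-like), 1 to 7 (RPE-like) and 0 to 15 (VEC-like). The block changed the call of 1 member, Arnt in rod-like cells. Clustering without integration named no VEC-like class, so VEC-like values were not recomputed there. Depth limits Egln3, Hif3a and Arnt2, and all members in types with few cells.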

Other observations

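Astrocyte-like (56) and VSMC-like cells (86) were too few for a test, and in both the OIR and Ctrl samples overlapped for all 10 members. Egln1 stood at 116 to 148 CPM in OIR and 92.0 to 331 CPM in Ctrl in astrocyte-like sums, from 99 UMIs, and at 47.5 to 91.4 CPM in OIR and 17.8 to 168 CPM in Ctrl in VSMC-like sums, from 89 UMIs. In VEC-like cells the 184 UMIs of Egln1 gave 104 CPM in OIR replicate 1 and 109 to 156 CPM in Ctrl, while the 2 cells each of OIR replicates 2 and 3 held none, so that these 2 samples carry little information.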
